A study of Mus musculus with 15 samples.

Results

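The genes described here encode the subunits of the proteasome, the factors that assemble it and the complexes that activate or inhibit it. They were taken as all rows of the deposited expression table whose symbol begins with Psm, followed by 1 letter from a to g and a digit, without names that hold -ps, which gave 50 of 17594 genes. Of these, 49 belong to the proteasome by function: 7 subunits of the alpha ring and the germ cell alpha subunit Psma8, 7 constitutive subunits of the beta ring, 3 subunits of the immunoproteasome and the thymic subunit Psmb11, 9 subunits of the base and 8 of the lid of the 19S cap, 3 assembly chaperones of the 19S cap and 4 of the 20S core, and 6 activators or inhibitors. Psmc3ip matches by name alone and encodes a factor of meiotic recombination. RNA was sequenced from 4 groups of sorted mouse spleen cells: regulatory T cells of knockout animals (Treg KO, n = 4), regulatory T cells of control animals (Treg WT, n = 4), conventional CD4 T cells of knockout animals (Tconv KO, n = 4) and conventional CD4 T cells of control animals (Tconv WT, n = 3). All groups were on the C57BL/6 background. The knockout animals carried a conditional allele of Hpgd, the gene of an enzyme that inactivates prostaglandin E2, together with a FOXP3-Cre-YFP driver, so that recombination depends on Foxp3 and Tconv KO cells come from animals of that genotype without being the targeted cell type. The control animals are labelled wild-type, the labels say nothing of Cre in them, and no age, sex or animal is given for a sample.

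The proteasome degrades proteins that carry ubiquitin chains. Its 20S core is a barrel of stacked rings, in which the outer alpha rings gate the entry and the inner beta rings hold the proteolytic sites. The sites are formed by Psmb6 (beta1), Psmb7 (beta2) and Psmb5 (beta5) in the constitutive core, and by Psmb9, Psmb10 and Psmb8 in the immunoproteasome, which is abundant in lymphocytes, induced by interferon gamma and known for producing peptides that MHC class I presents. The 19S cap binds ubiquitin chains, removes them and unfolds the substrate: its base carries the ATPases and its lid the deubiquitinase. Other caps, such as PA28 alpha and beta (Psme1 and Psme2), PA28 gamma (Psme3) and PA200 (Psme4), open the core without recognising ubiquitin, and Psmf1 (PI31) binds the core and inhibits it in vitro.

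Values are normalized read counts, that is, gene counts that the authors had divided by 1 size factor per library, and the libraries held 2.64 to 4.71 M reads in Treg KO, 6.43 to 10.0 M reads in Treg WT, 2.95 to 10.3 M reads in Tconv KO and 6.60 to 11.1 M reads in Tconv WT. The 4 Treg markers Foxp3, Il2ra, Ctla4 and Ikzf2 summed to 18831 to 23668 in Treg KO and 16547 to 18406 in Treg WT, against 640.3 to 4062 in Tconv KO and 1065 to 1258 in Tconv WT. In Tconv KO Ikzf2 stood at 366 to 3195 and Ctla4 at 188 to 764, with Foxp3 at 18.9 to 69.5 and Il2ra at 55.9 to 69.5. Hpgd had 0 reads in Treg KO, 1 in Treg WT and 0 in both Tconv groups, so that its loss was not detectable at this depth. Xist averaged 15567 ± 2586 in Treg KO and 1.84 ± 2.50 in Treg WT, and 10118 ± 2052 in Tconv KO and 1.67 ± 1.72 in Tconv WT, while the Y-linked genes Ddx3y, Kdm5d and Eif2s3y had 0 reads in all KO libraries and were read in all WT libraries. The KO cells were therefore female and the WT cells male, the sample numbers of the labels run from 574 to 581 in KO and from 483 to 490 in WT, and neither sex nor what sets these number ranges apart, which no label states, can be told apart from genotype in any difference below. The cycling markers Mki67 and Top2a, 2 of 2 with reads in every group, summed to 1161 to 1549 in Treg KO and 243 to 551 in Treg WT, and to 564 to 1091 in Tconv KO and 231 to 289 in Tconv WT. The B cell list (6 of 6 markers with reads in Treg) summed to 189 to 293 in Treg KO and 92.5 to 138 in Treg WT. The part of the cycling and B cell markers in the results was not tested. In these bulk libraries fewer cells of a type and less RNA per cell cannot be told apart. The library Treg KO 3, which had the fewest reads, stood apart. Over the 48 members tested its log2 value lay a median of 0.24 from the mean of the other 3 Treg KO libraries. For each of those libraries the median was 0.076 to 0.15. Over all genes tested it was 0.28 for Treg KO 3 and 0.18 to 0.19 for the others, so that the distance was not particular to the members. Treg KO 3 was the lowest of the group for 22 members and the highest for 17. Counts of members without Treg KO 3 are therefore given beside each comparison that includes Treg KO, but not for the gene lists around the proteasome.

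The catalytic subunits of the immunoproteasome were the most abundant of the beta ring in these T cells. Levels between genes are given here as normalized read counts per kb of transcript, averaged over the 15 libraries. The length is that of a single annotated transcript per gene, so that a level depends on the transcript chosen. Psma2 and Psma3 were divided by 2911 and 2846 bases, and Psma7 by 914. Psmb8 stood at 1099, Psmb9 at 627 and Psmb10 at 613, above each constitutive beta subunit, which ranged from 249 for Psmb3 to 469 for Psmb4. The alpha ring, whose subunits stand in equal number in the particle, spread more widely, between 60.6 for Psma5 and 593 for Psma7 with a median of 355. Psma5, Psmb3 and Psmb5 share 54.5%, 55.8% and 57.1% of their 50-base stretches with other transcripts, so that their levels are uncertain. The base of the 19S cap lay between 172 for Psmd1, its largest scaffold, and 488 for the ubiquitin receptor Psmd4, with a median of 306. The lid had a median of 216, between 107 for Psmd11 and 333 for Psmd8. The assembly chaperones were scarcer, 41.8 to 94.2 for those of the 19S cap (Psmd9, Psmd5 and Psmd10) and 63.9 to 124 for those of the core (Psmg3, Psmg1, Psmg4 and Psmg2). The highest level among all members was that assigned to Psme2b, a copy of Psme2, at 1883, with Psme2 itself at 70.2. Their coding regions are nearly identical, so that the division of reads between them is uncertain. Psme1, the partner of Psme2, followed at 1390.3, and the lowest among the members tested was Psmc3ip at 11.1. Psma8, known from the testis, and Psmb11, known from cortical thymic epithelium, had 13 and 7 reads in all 15 libraries together and did not pass the filter on low values, which asked for 3 or more libraries with 10 or more normalized counts. The other 48 members passed it, and Psmc3ip, with 233 reads, was the nearest to it.

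At each of the 3 proteolytic sites the immuno subunit exceeded its constitutive counterpart per length in all 15 libraries. The ratio was largest at the beta5 site, which cuts after hydrophobic residues: Psmb8 over Psmb5 was 4.98, 5.64, 6.89 and 4.62 in Treg KO, 3.60, 3.56, 3.89 and 4.56 in Treg WT, 4.71, 4.15, 3.93 and 3.68 in Tconv KO and 3.58, 3.23 and 3.03 in Tconv WT. The KO libraries did not overlap the WT libraries in either cell type, and the highest of all was Treg KO 3. The group means were 5.53 ± 0.999 in Treg KO and 3.90 ± 0.464 in Treg WT, and 4.12 ± 0.439 in Tconv KO and 3.28 ± 0.278 in Tconv WT (SD). At the beta2 site, which cuts after basic residues, Psmb10 over Psmb7 averaged 1.94 ± 0.540 in Treg KO and 2.21 ± 0.184 in Treg WT, and 2.03 ± 0.214 in Tconv KO and 2.28 ± 0.276 in Tconv WT. All these groups overlapped, and Treg KO 3, at 1.16, was the lowest library of the series. At the beta1 site Psmb9 over Psmb6 averaged 1.54 ± 0.153 in Treg KO and 1.53 ± 0.117 in Treg WT, and 1.24 ± 0.122 in Tconv KO and 1.42 ± 0.126 in Tconv WT, again with overlap between the genotypes in both cell types. The ratios are described without a test, because they combine members. Their size is uncertain, since each length is that of a single transcript per gene. Psmb5 also shares 57.1% of its 50-base stretches with other transcripts.

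**Figure D1:**
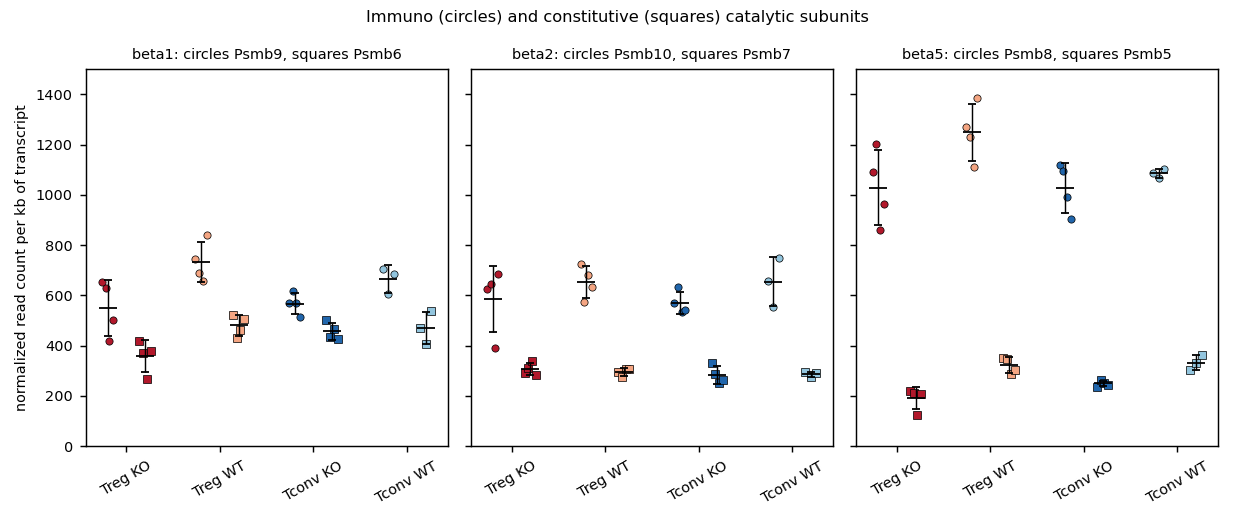
Normalized read count per kb of transcript (vertical axis) of the immuno subunit (circles) and the constitutive subunit (squares) of each proteolytic site in the 4 groups (horizontal axis). Points are libraries, bars the mean ± SD. Every circle lies above the square of the same library at all sites, and the distance is widest at the beta5 site, where Psmb5 stands lower in the KO groups.

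The first comparison asked how the proteasome genes of Treg differed between the knockout and the control animals. The constitutive beta ring was lower in part in Treg KO, with Psmb3, Psmb5, Psmb4 and Psmb6 down, while Psmb2 of the same ring, the 19S base subunits Psmd1, Psmc6 and Psmc2 and the activators Psme4 and Psme3 were up. Of the 48 members tested 18 passed limma (Benjamini-Hochberg adjusted p under 0.05 over all genes), 10 higher and 8 lower in Treg KO, which is 37.5%, where 21.5% of all 11314 genes tested passed. The background was 10.4% of genes higher and 11.1% lower. The median log2 fold change of the members was -0.06, and that of all genes 0.00. For 19 of 48 members (39.6%) the values of the groups did not overlap, against 26.2% of all genes. Without Treg KO 3 the counts were 6 higher and 6 lower, all of them among the 18, which is 25.0% of the members, where 15.3% of all genes passed. Without Treg WT 1 they were 6 and 4, or 20.8%, against 12.3% of all genes. Without Treg WT 2 they were 6 and 8 (29.2%, against 15.3%), and without Treg WT 4 they were 7 and 5 (25.0%, against 13.2%). With TMM scaling in place of the authors' scaling they were 7 and 9 (33.3%, against 21.3%).

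**Figure D2:**
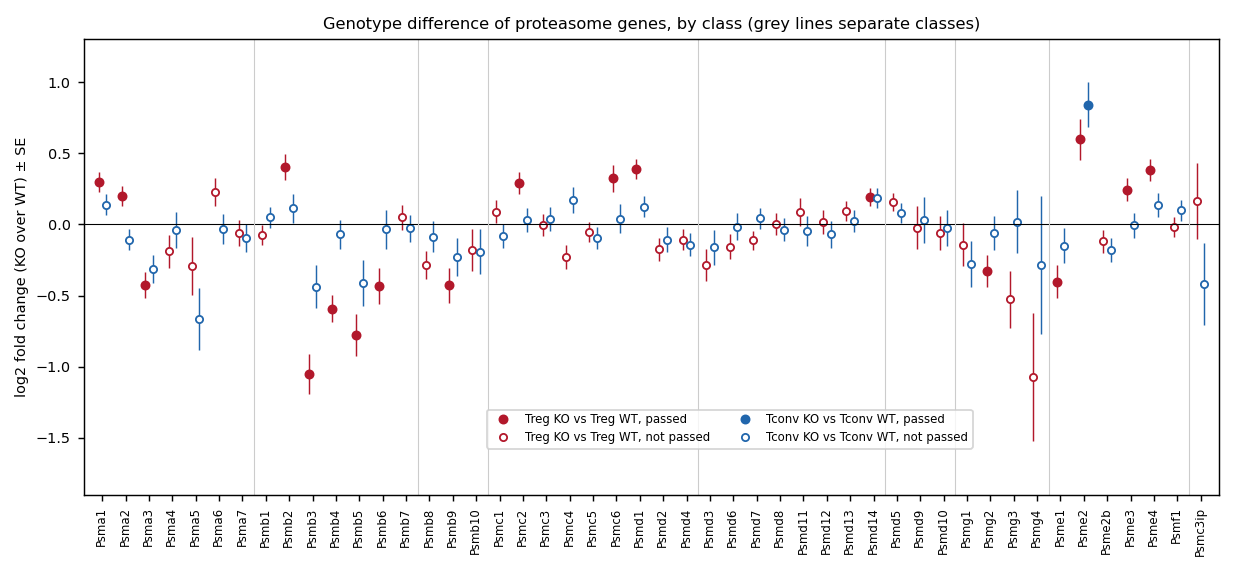
Log2 fold change of KO over WT with its SE (vertical axis) for the 48 members tested (horizontal axis, by class), in Treg (red) and in Tconv (blue). Filled points passed the test. In Treg the filled points of the constitutive beta ring lie below 0 except Psmb2, those of the 19S base above 0, and in Tconv the only filled point is Psme2.

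Within the constitutive beta ring 4 of 7 subunits fell, 1 rose and 2 did not pass, with a median log2 fold change of -0.43. Psmb3 (ENSMUSG00000069744.7, chromosome 11, 97703399 to 97713500 on the plus strand, GRCm38), a structural subunit without a proteolytic site, had 141, 123, 90.5 and 107 normalized counts in Treg KO, against 256, 250.4, 199.5 and 244 in Treg WT. The highest KO library lay well below the lowest WT library. The log2 fold change was -1.05 ± 0.14, adjusted p = 2.7e-04. Psmb5 (ENSMUSG00000022193.7, chromosome 14, 54614119 to 54618022 on the minus strand), the constitutive beta5 protease, had 197, 192, 112 and 187 in Treg KO, against 317, 311, 257 and 273 in Treg WT. Its groups did not overlap either, and the change was -0.78 ± 0.15, adjusted p = 0.0028, or -0.58, adjusted p = 8.8e-04 without Treg KO 3, the lowest library. Psmb4 (ENSMUSG00000005779.12, chromosome 3, 94884093 to 94886961 on the minus strand), a structural subunit that joins the ring last, had 457, 473, 347 and 413 in Treg KO, against 663, 665, 579 and 629 in Treg WT, again without overlap (-0.59 ± 0.09, adjusted p = 9.6e-04). Psmb6 (ENSMUSG00000018286.6, chromosome 11, 70525367 to 70527858 on the plus strand), the constitutive beta1 protease, had 335, 296, 213 and 302 in Treg KO, against 418, 344, 368 and 405 in Treg WT. These groups came close to each other, and the change of -0.43 ± 0.13, adjusted p = 0.024 was no longer past the threshold without Treg KO 3 (-0.30, adjusted p = 0.055), Treg WT 1 or Treg WT 4 (adjusted p up to 0.075).

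Psmb2 (ENSMUSG00000028837.8, chromosome 4, 126677630 to 126709714 on the plus strand), a structural subunit that is incorporated early, moved the other way. It had 438, 471, 403 and 424 in Treg KO, against 304, 338, 335 and 332 in Treg WT, without overlap (0.41 ± 0.09, adjusted p = 0.0075). The structural subunit Psmb1 averaged 775 ± 58.3 in Treg KO and 817 ± 54.5 in Treg WT and did not pass (-0.08 ± 0.07, adjusted p = 0.44). Psmb7 (ENSMUSG00000026750.6, chromosome 2, 38588036 to 38644087 on the minus strand), the constitutive beta2 protease, had 339, 360.3, 392 and 330.3 in Treg KO, against 341, 318, 355 and 356 in Treg WT, and did not pass either (0.05 ± 0.09, adjusted p = 0.71). Subunits that stand in equal number in the core thus changed by amounts between -1.05 and 0.41 on the log2 scale.

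The stretches of 160 bases that end before the annotated starts of the 4 beta genes that fell are shown because these genes moved together (RefSeq promoter windows on GRCm38.p6, cut before the RefSeq and the GENCODE start, 5' to 3' along the gene). Capitals mark the interferon response motif (GAAA, 2 free bases and GAAA), the gamma interferon activated motif (TTCNNNGAA), the antioxidant response motif (TGACNNNGC) and the CCAAT box (CCAAT), searched on both strands. They lie at chr11:97703239-97703398 (plus strand), chr3:94886962-94887121 (minus strand), chr14:54618023-54618182 (minus strand) and chr11:70525197-70525356 (plus strand).
Psmb3: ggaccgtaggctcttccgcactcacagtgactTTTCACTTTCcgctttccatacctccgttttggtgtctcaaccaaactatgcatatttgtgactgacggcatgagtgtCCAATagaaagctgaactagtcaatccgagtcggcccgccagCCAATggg
Psmb4: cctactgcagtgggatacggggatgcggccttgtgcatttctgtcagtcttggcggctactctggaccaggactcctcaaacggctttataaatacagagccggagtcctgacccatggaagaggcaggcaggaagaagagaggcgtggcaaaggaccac
Psmb5: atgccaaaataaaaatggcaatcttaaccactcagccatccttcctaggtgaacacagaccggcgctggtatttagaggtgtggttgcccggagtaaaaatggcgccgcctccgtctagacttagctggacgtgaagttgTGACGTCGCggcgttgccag
Psmb6: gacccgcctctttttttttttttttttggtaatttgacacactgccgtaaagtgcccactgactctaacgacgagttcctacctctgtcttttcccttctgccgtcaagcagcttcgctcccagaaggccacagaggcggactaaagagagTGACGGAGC
None of the searched motifs stood in all 4 stretches. Psmb3 held 1 interferon response motif and a pair of CCAAT boxes, Psmb5 and Psmb6 each held 1 antioxidant response motif and Psmb4 held none. In the whole windows of 300 bases, from 250 before to 50 after the start, 42 members had a sequence, and the antioxidant response motif stood in 6 of them (14.3%) and in 13.99% of 27025 genes. The interferon response motif stood in 5 of 42 members (11.9%) and in 3.99% of genes, namely Psmb3, Psmd4, Psmd9, Psme1 and Psmg4. The gamma interferon activated motif stood in 3 (7.14%, against 9.55% of genes), among them Psmb8, and CCAAT in 15 (35.7%, against 41.1%). A match is a run of letters and not a measured site.

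Of the 3 immunoproteasome subunits 1 passed in Treg KO, Psmb9, which was lower, and the median log2 fold change of the 3 was -0.29. Psmb9 (ENSMUSG00000096727.3, chromosome 17, 34181987 to 34187764 on the minus strand), the immuno beta1 protease encoded beside Tap1 in the MHC, had 885, 852, 564 and 681 in Treg KO, against 1006, 931, 892 and 1135 in Treg WT. The groups did not overlap, but the highest KO library and the lowest WT library nearly met, and the fall of -0.43 ± 0.12, adjusted p = 0.024 did not pass without Treg KO 3 (-0.30, adjusted p = 0.062), Treg KO 4, Treg WT 1 or Treg WT 4 (adjusted p up to 0.079). Psmb8 (ENSMUSG00000024338.15, chromosome 17, 34197721 to 34201454 on the plus strand), the immuno beta5 protease, had 1779, 1958, 1398 and 1567 in Treg KO, against 2065, 2004, 1811 and 2257 in Treg WT, with overlap (-0.29 ± 0.10, adjusted p = 0.051). Psmb10 (ENSMUSG00000031897.9, chromosome 8, 105935735 to 105938444 on the minus strand), the immuno beta2 protease, had 818, 847, 515 and 896 in Treg KO, against 950.5, 752, 894 and 829 in Treg WT (-0.18 ± 0.15, adjusted p = 0.39). Only Treg KO 3 lay below the WT libraries of Psmb10, and the other 3 KO libraries lay within the WT range.

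The alpha ring, 2 of 7 higher and 1 lower with a median of -0.06, split in the same way. Psma1 averaged 547 ± 44.7 in Treg KO and 444 ± 17.2 in Treg WT, without overlap (0.30 ± 0.07, adjusted p = 0.01). Psma2 (ENSMUSG00000015671.11, chromosome 13, 14613240 to 14674236 on the plus strand) had 675, 669.6, 689 and 583 in Treg KO, against 559.9, 557, 590.4 and 568 in Treg WT, where the lowest KO library lay inside the WT range (0.20 ± 0.07, adjusted p = 0.049). Its call ended without any 1 of 12 of the 15 libraries (adjusted p up to 0.11). Psma3, whose tail helps to gate the pore, averaged 161 ± 12.5 in Treg KO and 216 ± 8.91 in Treg WT and fell without overlap (-0.43 ± 0.09, adjusted p = 0.0059). The other 4 subunits did not pass and lay between -0.29 for Psma5 and 0.23 for Psma6.

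In the 19S cap 3 of 9 base subunits and 1 of 8 lid subunits were higher and none was lower in limma, which is 23.5% of these 17 genes, near the 21.5% of all genes, and their median was 0.00. Psmd1, the scaffold of the base, averaged 640.3 ± 52.6 in Treg KO and 488 ± 36.9 in Treg WT (0.39 ± 0.07, adjusted p = 0.0021). Among the 6 ATPases of the base, which unfold the substrate, Psmc6 stood at 513 ± 69.9 in Treg KO and 407 ± 10.8 in Treg WT (0.32 ± 0.09, adjusted p = 0.024) and Psmc2 at 607 ± 65.1 in Treg KO and 493 ± 7.45 in Treg WT (0.29 ± 0.08, adjusted p = 0.016). The groups of these 3 genes did not overlap, but without Treg KO 3 Psmc6 missed the threshold (0.24, adjusted p = 0.061). It did so as well without Treg WT 1, Treg WT 2 or Treg WT 4 (up to 0.064). The ATPase Psmc4 was the lowest of the base at -0.23 ± 0.08, adjusted p = 0.061, and Psmc1, Psmc3 and Psmc5 lay between -0.05 and 0.09. The remaining base subunits were Psmd2, another scaffold, at -0.18 ± 0.08, adjusted p = 0.12, and the ubiquitin receptor Psmd4 at -0.11 ± 0.07, adjusted p = 0.32. In the lid, Psmd14, the deubiquitinase, averaged 435 ± 28.2 in Treg KO and 380.3 ± 17.6 in Treg WT, with overlap (0.19 ± 0.07, adjusted p = 0.046). That call ended without any 1 of 12 of the 15 libraries (adjusted p up to 0.11). The other 7 lid subunits, which scaffold it, lay between -0.29 for Psmd3 and 0.09 for Psmd13.

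The assembly chaperones of the core lay below 0 in Treg KO, and 1 of 4 passed. Psmg2, which pairs with Psmg1 to build the alpha ring, averaged 109.7 ± 16.1 in Treg KO and 137 ± 0.616 in Treg WT (-0.33 ± 0.11, adjusted p = 0.049). Its call, too, ended without any 1 of 12 of the 15 libraries (adjusted p up to 0.12). Psmg4, which pairs with Psmg3, had the lowest point estimate of all members at -1.07 ± 0.45, adjusted p = 0.097, set by Treg KO 3, where it stood at 6.46, or 3 reads, against 40.6 to 52.2 in the other Treg KO libraries, and without that library it was -0.40, adjusted p = 0.11. Psmg3 stood at -0.53 ± 0.20, adjusted p = 0.075 and Psmg1 at -0.14 ± 0.15, adjusted p = 0.52. The 19S chaperones Psmd5, Psmd9 and Psmd10 did not pass, with values between -0.06 and 0.16.

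The activators changed in both directions, 3 of 6 higher and 1 lower. Psme4, the nuclear activator PA200, averaged 785 ± 54.4 in Treg KO and 602 ± 42.4 in Treg WT (0.38 ± 0.08, adjusted p = 0.0037), and Psme3, the nuclear PA28 gamma, 986 ± 103 in Treg KO and 829.7 ± 49.2 in Treg WT (0.24 ± 0.08, adjusted p = 0.043, a call that ended without any 1 of 10 of the 15 libraries, adjusted p up to 0.13). Psme1 (ENSMUSG00000022216.17, chromosome 14, 55578123 to 55581529 on the plus strand), the alpha subunit of the PA28 cap that interferon gamma induces, had 1551, 1515, 1029.9 and 1377 in Treg KO, against 1891, 1753, 1765 and 1741 in Treg WT. All KO libraries were lower than all WT libraries. The log2 fold change was -0.40 ± 0.11, adjusted p = 0.023, or 0.067 without Treg WT 1. Psme2, its beta subunit, rose, and is described with its copy Psme2b below. The inhibitor Psmf1 stood at -0.02 ± 0.07, adjusted p = 0.87 and the name match Psmc3ip at 0.17 ± 0.27, adjusted p = 0.69.

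**Figure D3:**
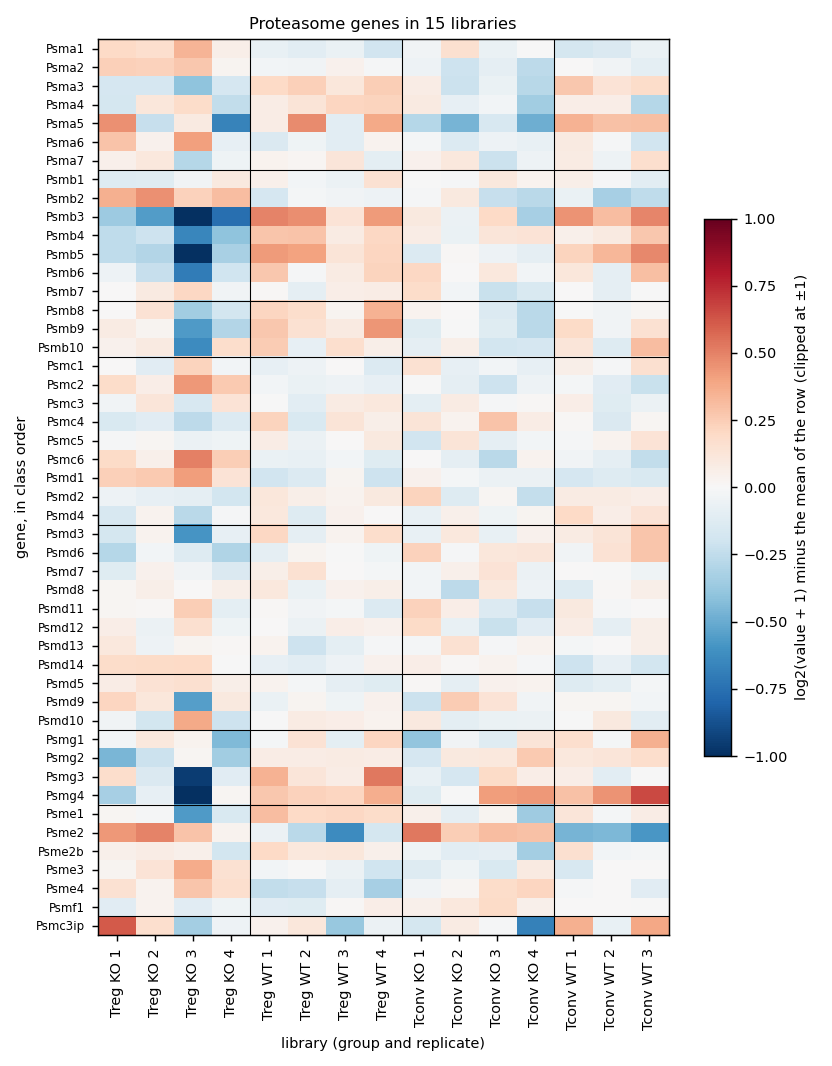
Level of the 48 members tested (rows, by class, with black lines between classes) in each library (columns, by group), as log2(value + 1) minus the mean of the row. Treg KO 3 is the darkest column, with Psmb3, Psmb5, Psmg3 and Psmg4 lowest there, and Psmb3 is blue in all Treg KO libraries and red in all Treg WT libraries.

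The members that changed also differed in base composition. The 10 that rose had a median transcript GC content of 45.4% and a median length of 2010 bases, and the 8 that fell had 54.3% and 1086 bases. Over the 48 members tested the log2 fold change of Treg KO over Treg WT correlated with GC content (Pearson -0.48) and with log2 length (0.47), as a description over genes that share the same 8 libraries. The same lean was present over 11219 genes with an annotation (-0.37 and 0.21), whose median fold change was 0.20 in the lowest of 5 equal GC bins and -0.32 in the highest. Between Treg WT and Tconv WT these correlations were 0.05 and -0.16 over the members and 0.02 and 0.02 over all genes. Between Treg KO and Tconv KO they were -0.47 and 0.38 over the members and -0.11 and 0.08 over all genes. Between Tconv KO and Tconv WT they were -0.16 and 0.21 over the members and -0.22 and 0.15 over all genes. After the trend on GC content was removed from each library, 5 members remained higher in Treg KO and 7 were lower, 5 of them among the 8 named above and the others Psma4 and Psmb1. Together they were 25.0% of the members, where 13.5% of all genes passed with the trend removed. Psmb3 (-0.93, adjusted p = 2.0e-04), Psmb5 (-0.53, adjusted p = 0.0019), Psmb4 (-0.54, adjusted p = 6.4e-04), Psma3 (-0.62, adjusted p = 0.0031), Psmb2 (0.42, adjusted p = 0.0058) and Psmd1 (0.29, adjusted p = 0.0051) still passed. Psmb6 (-0.23, adjusted p = 0.1), Psmb9 (-0.25, adjusted p = 0.08), Psme1 (-0.24, adjusted p = 0.079), Psma1 (0.14, adjusted p = 0.18), Psmc6 (0.10, adjusted p = 0.34), Psme3 (0.22, adjusted p = 0.062) and Psmd14 (0.03, adjusted p = 0.83) did not, and Psma2 turned to -0.0078 with an adjusted p of 0.96. The part of base composition in these changes was not tested.

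**Figure D4:**
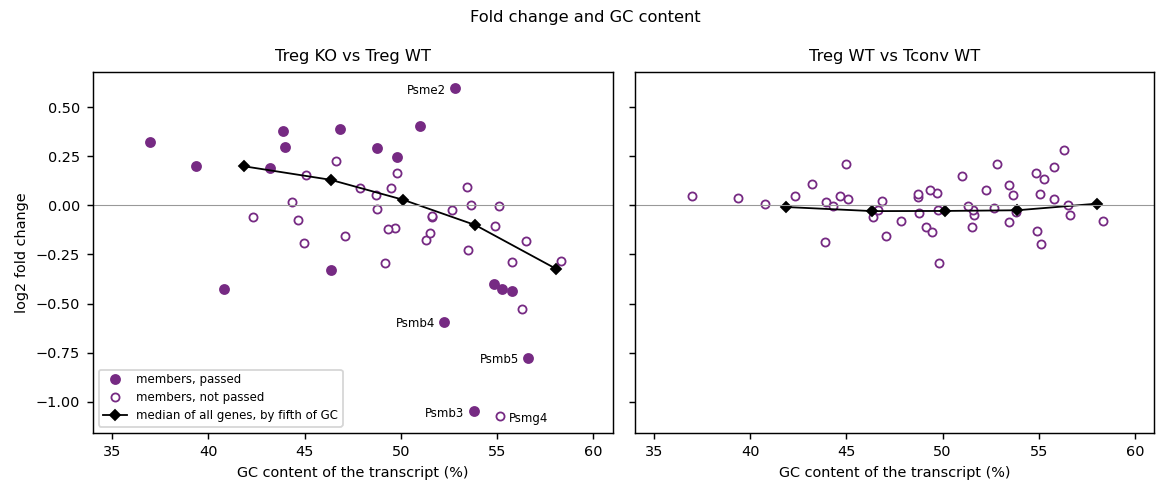
Log2 fold change (vertical axis) against GC content of the transcript in percent (horizontal axis) for the 48 members tested, in Treg KO over Treg WT (left) and Treg WT over Tconv WT (right). Filled circles passed the test, and diamonds give the median of all genes in each of 5 equal GC bins. On the left both the members and the diamonds descend, the diamonds from 0.20 in the lowest bin to -0.32 in the highest, and on the right the diamonds stay near 0 and no member is filled.

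Several of these transcripts resemble others, which matters where reads could be given to more than 1 place. Of the 48 members tested, 9 shared at least 20% of their 50-base stretches with another annotated transcript, among them Psme2b (69.3%), Psme2 (59.3%), Psmb5 (57.1%), Psmb3 (55.8%) and Psma5 (54.5%), so that their values are uncertain. Over the other 39 members, 9 were higher and 5 lower in Treg KO than in Treg WT in the same fit. Of all genes tested, whatever sequence they share, 10.4% were higher and 11.1% lower. Exons of 15 of the 50 members overlapped another annotated gene, such as Psmb9 with Tap1 on the opposite strand over 212 bases, and the counting is not stated to use strand.

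Psme2 and Psme2b are the clearest case. Psme2 (ENSMUSG00000079197.10, chromosome 14, 55587441 to 55591113 on the minus strand) and Psme2b (ENSMUSG00000078153.3, chromosome 11, 48945354 to 48946190 on the minus strand), a copy of it with 1 exon, have coding regions of 720 bases each that differ by 5 substitutions and are 99.3% identical, with an identical run of 311 bases. Bases 424 to 543 of both coding regions (GENCODE vM21) show 3 of the 5 differences in capitals, the letters on which a read from this stretch can be placed.
Psme2: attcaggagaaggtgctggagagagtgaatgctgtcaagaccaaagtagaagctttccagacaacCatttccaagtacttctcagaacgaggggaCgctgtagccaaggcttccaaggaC
Psme2b: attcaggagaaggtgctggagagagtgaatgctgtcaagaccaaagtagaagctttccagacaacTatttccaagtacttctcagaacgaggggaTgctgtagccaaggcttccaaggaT
Psme2 had 88.5, 92.2, 79.7 and 66.9 in Treg KO, against 62.4, 53.8, 41.9 and 57.6 in Treg WT, and 94.4, 77.5, 80.8 and 80.0 in Tconv KO, against 47.0, 47.4 and 43.3 in Tconv WT. In both cell types all KO libraries were higher than all WT libraries, and the log2 fold change was 0.60 ± 0.15, adjusted p = 0.011 in Treg and 0.84 ± 0.16, adjusted p = 0.021 in Tconv. Psme2b, at many times that level, averaged 1571 ± 126 in Treg KO and 1704 ± 70.2 in Treg WT (-0.12 ± 0.08, adjusted p = 0.29), and 1425 ± 127 in Tconv KO and 1614 ± 122 in Tconv WT (-0.18 ± 0.08, adjusted p = 0.41). Of the reads of the pair, Psme2 took 4.61 to 5.28% in Treg KO and 2.40 to 3.42% in Treg WT, and 5.04 to 6.06% in Tconv KO and 2.61 to 2.99% in Tconv WT. With both genes summed, the change was -0.09 ± 0.08 with an adjusted p of 0.42 in Treg and -0.14 ± 0.08 with 0.52 in Tconv (limma), and neither passed. The copies cannot be told apart over most of their length, and the cause of the shift was not tested.

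**Figure D5:**
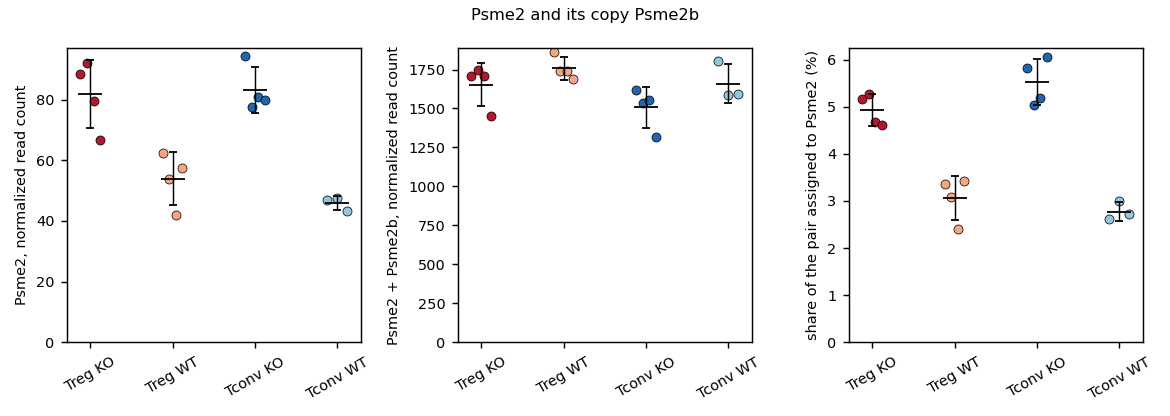
Normalized read count of Psme2 (left), the summed count of Psme2 and Psme2b (middle) and the share of the pair's reads assigned to Psme2 in percent (right) in the 4 groups. Points are libraries, bars the mean ± SD. Psme2 and its share stand higher in every KO library than in any WT library of the same cell type, and the sums overlap.

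The second comparison set conventional T cells of the knockout animals, in which the Foxp3 driver is not meant to act, against those of the controls. Of the 48 members 1 passed, Psme2 (higher), and 0 were lower in limma, where 0.681% of all genes passed, 0.292% higher and 0.389% lower. DESeq2 and edgeR likewise called Psme2 higher and 0 lower, where 2.09% and 0.822% of all genes passed. In limma 7 members had an unadjusted p under 0.05. The values did not overlap for 11 of 48 members (22.9%), against 16.3% of all genes, among them Psma5 (-0.67 ± 0.22, adjusted p = 0.22), Psmb3 (-0.44 ± 0.15, adjusted p = 0.25), Psmb5 (-0.41 ± 0.16, adjusted p = 0.31) and Psma3 (-0.31 ± 0.10, adjusted p = 0.2). Psmb3 had 194, 174, 209 and 144 in Tconv KO, against 249, 225 and 255 in Tconv WT. Psmb5 had 213, 237, 227 and 221 in Tconv KO, against 274, 297 and 328 in Tconv WT. In both genes each KO library was below each WT library, and neither passed in the fit of all libraries. Without Treg KO 3, which enters this comparison through the shared variance alone, Psmb5 passed as lower (adjusted p = 0.028) and Psmb3 did not (0.10). In that fit 1 member was higher and 1 lower, where 2.20% of all genes passed. The immunoproteasome subunits stood at -0.09 ± 0.11 for Psmb8, -0.23 ± 0.13 for Psmb9 and -0.19 ± 0.16 for Psmb10, with adjusted p between 0.50 and 0.77. Psmb9 had 769, 835, 771 and 695 in Tconv KO, against 955, 817 and 927 in Tconv WT. Psmb8 had 1819.7, 1782, 1613 and 1472 in Tconv KO, against 1773, 1737 and 1796 in Tconv WT, and Psmb10 had 748, 828, 699.9 and 709 in Tconv KO, against 864, 727 and 983 in Tconv WT. These groups overlapped, as did Psme1, which had 1585, 1439, 1561 and 1196 in Tconv KO, against 1667, 1506 and 1613 in Tconv WT. Psmb6 had 400.3, 348, 373 and 340.1 in Tconv KO, against 374, 325 and 428 in Tconv WT. Psmb7 had 385, 333, 289.8 and 305 in Tconv KO, against 341, 318 and 338 in Tconv WT, and these proteases overlapped as well. The call of Psme2 did not hold without Tconv KO 1 (adjusted p = 0.063) or without any 1 of the 3 Tconv WT libraries (up to 0.13).

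Whether the genotype difference itself differed between Treg and Tconv was tested as an interaction, the Treg difference minus the Tconv difference. In limma 0 of 48 members passed in either direction, where 0.150% of all genes did, 0.0354% higher and 0.115% lower, and 9 had an unadjusted p under 0.05. edgeR also found 0, where 0.150% of all genes passed, and DESeq2 found 1, Psmb4, where 0.778% did. Without Treg KO 3 limma found 0 as well, where 0.159% of all genes passed, and the smallest adjusted p, that of Psmb4, was 0.18. The smallest adjusted p in limma belonged to Psmb4, at -0.52 ± 0.14, adjusted p = 0.22, where Tconv stood at -0.07 ± 0.10. It was followed by Psmc4 (-0.40 ± 0.12, adjusted p = 0.32), Psma2 (0.31 ± 0.10, adjusted p = 0.37) and Psmb3 (-0.61 ± 0.21, adjusted p = 0.4). In limma no member was thus shown to change differently in Treg and Tconv. The constitutive protease Psmb5 stood at -0.37 ± 0.22 and the immunoproteasome subunit Psmb8 at -0.20 ± 0.15.

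The third comparison set Treg against Tconv of the control animals, the cell type difference without the knockout. No member passed: 0 of 48 were called in limma in either direction, where 18.1% of all genes were, 10.0% higher and 8.06% lower. Both edgeR and DESeq2 found 0 members as well, where 20.6% and 23.1% of all genes passed. Only Psme4 had an unadjusted p under 0.05 (-0.18 ± 0.08, adjusted p = 0.14). All log2 fold changes lay between -0.29 and 0.28, with a median of 0.01 over the members. The values did not overlap for 5 of 48 members (10.4%), against 41.1% of all genes. Psmb8 had a mean of 2035 ± 184 in Treg WT libraries, against 1769 ± 29.9 in Tconv WT libraries (0.20 ± 0.11, adjusted p = 0.24), and Psme1 1788 ± 69.4 in Treg WT libraries, against 1595 ± 82.0 in Tconv WT libraries (0.16 ± 0.12, adjusted p = 0.42), both without overlap. In a fit of these 7 libraries alone these genes passed as higher (Psmb8 with an adjusted p of 0.038 and Psme1 with 0.034), as did Psme4 as lower (0.043). These 3 are 6.25% of the members, where 35.3% of all genes passed in that fit. Psmb9 stood at 0.14 ± 0.13 and Psmb10 at 0.00 ± 0.16, Psmb5 at -0.05 ± 0.16 and Psmb3 at -0.04 ± 0.15.

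The fourth comparison set Treg against Tconv within the knockout animals, and shares its Treg KO libraries with the first and its Tconv KO libraries with the second. Here 6 of 48 members were higher in Treg KO and 7 lower, 27.1%, where 31.4% of all genes passed, 15.8% higher and 15.6% lower. The values did not overlap for 13 of 48 members (27.1%), against 24.1% of all genes. The constitutive beta ring held 4 of the 7 lower members, with Psmb3 at -0.65 ± 0.14, adjusted p = 0.0027, Psmb4 at -0.45 ± 0.09, adjusted p = 0.002, Psmb5 at -0.42 ± 0.15, adjusted p = 0.042 and Psmb6 at -0.36 ± 0.13, adjusted p = 0.037. Psmb4 had 575, 521, 595 and 602 in Tconv KO, so that all of its Treg KO libraries given above were lower. The same held for Psmb3, Psmb5 and Psmb6, but without Treg KO 3 neither Psmb5 (-0.22, adjusted p = 0.069) nor Psmb6 (-0.23, adjusted p = 0.094) passed. The call of Psmb5 ended without any 1 of 10 of the 15 libraries. That of Psmb6 ended also without Tconv KO 1, Tconv KO 2 or Tconv KO 3. Psmb2, with 339, 367, 292 and 283 in Tconv KO, and Psma2, with 552, 496, 538 and 476, were higher in all Treg KO libraries (0.44 ± 0.09, adjusted p = 0.0018, and 0.34 ± 0.07, adjusted p = 0.0013). The base subunits Psmc6 (0.33 ± 0.09, adjusted p = 0.014), Psmc2 (0.32 ± 0.08, adjusted p = 0.005) and Psmd1 (0.29 ± 0.07, adjusted p = 0.0058) and the activator Psme3 (0.23 ± 0.08, adjusted p = 0.042) were higher too. The ATPase Psmc4 (-0.30 ± 0.08, adjusted p = 0.013), the lid subunit Psmd6 (-0.30 ± 0.09, adjusted p = 0.017) and the chaperone Psmg2 (-0.33 ± 0.11, adjusted p = 0.038) were lower. Psmc6 did not pass without Tconv KO 3 (adjusted p = 0.052). Psme3 did not pass without any 1 of 11 libraries (up to 0.11). Psmg2 did not pass without any 1 of 12 (up to 0.12). The immunoproteasome subunits stood near 0, at -0.00 ± 0.10, -0.06 ± 0.12 and 0.01 ± 0.15 for Psmb8, Psmb9 and Psmb10. Without Treg KO 3 the counts were 5 higher and 5 lower, 20.8% of the members, where 30.7% of all genes passed. Without Tconv KO 2 there were 6 higher and 4 lower (20.8%, against 26.8%), and without Tconv KO 3 there were 4 and 4 (16.7%, against 25.7%). With the GC trend removed from each library there were 6 higher and 7 lower (27.1%, against 35.3%).

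Genes around the proteasome were taken from 5 lists of 45 genes, of which 44 were in the table and tested. No counts without single libraries are given for these lists, so how far their calls depend on a library is not shown. Sequence shared with other transcripts was examined for the members only and not for these genes, Rps27a included. In Treg KO against Treg WT 5 were higher and 7 lower, 27.3% of them, against 21.5% of all genes. Among ubiquitin genes, Rps27a, which encodes ubiquitin fused to a ribosomal protein, fell by the most (-2.12 ± 0.16, adjusted p = 6.8e-07), and Ubb, a polyubiquitin gene, fell as well (-0.23 ± 0.06, adjusted p = 0.017). The activating enzyme Uba6 rose (0.38 ± 0.12, adjusted p = 0.037). Among factors that deliver substrates, the shuttle protein Rad23b rose (0.36 ± 0.12, adjusted p = 0.044), and the segregase Vcp (-0.36 ± 0.09, adjusted p = 0.01) and its cofactor Nsfl1c (-0.42 ± 0.11, adjusted p = 0.016) fell. Of 9 proteasome partners, AI314180, also named Ecpas, rose (0.41 ± 0.07, adjusted p = 0.0021). Another list held 10 genes of transcription factors that act on proteasome genes or of proteins that activate such factors. Of these, Nlrc5, the activator of MHC class I genes, fell (-0.38 ± 0.09, adjusted p = 0.012). Of 5 genes of peptide transport and loading, B2m (0.25 ± 0.08, adjusted p = 0.039) and the peptidase Erap1 (0.26 ± 0.08, adjusted p = 0.039) rose, and Tap1, Tap2 and Tapbp did not pass.

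In Tconv KO against Tconv WT 0 of these 44 genes were higher and 1 lower in limma, Rps27a (-0.81 ± 0.17, adjusted p = 0.044), with 5 at an unadjusted p under 0.05. Rps27a was also the 1 gene of the lists that passed the interaction (-1.32 ± 0.23, adjusted p = 0.034). In Treg WT against Tconv WT 4 were higher and 3 lower, 15.9% of them, against 18.1% of all genes. Among them, Nlrc5 (0.42 ± 0.10, adjusted p = 0.008), B2m (0.27 ± 0.09, adjusted p = 0.048) and Ubb (0.21 ± 0.07, adjusted p = 0.036) stood higher in Treg WT, and Nfe2l2, a regulator of the oxidative stress response (-1.01 ± 0.15, adjusted p = 1.7e-04), Ngly1, the glycanase that activates Nfe2l1 (-0.28 ± 0.09, adjusted p = 0.036), and the shuttle protein Ubqln2 (-0.34 ± 0.10, adjusted p = 0.022) lower. In Treg KO against Tconv KO 8 were higher and 8 lower, 36.4% of them, against 31.4% of all genes. They had B2m (0.52 ± 0.08, adjusted p = 2.1e-04), Rad23b (0.49 ± 0.12, adjusted p = 0.0057) and AI314180 (0.32 ± 0.07, adjusted p = 0.0039) among the higher and Rps27a (-1.69 ± 0.16, adjusted p = 1.5e-06), Nfe2l2 (-0.91 ± 0.14, adjusted p = 1.5e-04), Ubqln2 (-0.55 ± 0.09, adjusted p = 3.3e-04) and Ngly1 (-0.40 ± 0.08, adjusted p = 0.0016) among the lower.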

How the data were processed

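The 15 libraries of sorted spleen cells were made with an Illumina TruSeq kit, per the labels' protocols, with 10 ng of RNA each. TopHat and the build mm10 are named in the submitters' processing notes. The TopHat version, the counting tool and the annotation were not given in the sources used here. In the deposited table the authors give a normalized signal, that is, gene counts divided by 1 size factor per library. Whole reads were recovered from it for 100% of values within 0.001.

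Log2(value + 1) was fitted in limma 3.58.1 (R 4.3.3) with 4 group means over all 15 libraries and a trend on mean level. The filter kept 11314 genes that reached 10 in 3 or more libraries. The 5 contrasts were tested two-sided, and a Benjamini-Hochberg adjusted p under 0.05 over all genes counts as passed. Errors are SE for log2 fold changes and SD over libraries for levels. Fold changes on this scale understate those of low genes. Replicates were numbered in accession order, and p-values measure the spread between samples, which may be technical, since no label names the animals. Every gene matching the symbol pattern could be named. Values per library were planned for the catalytic subunits, Psme1, Psme2 and up to 6 members with the largest change per contrast, and up to 4 genes per pathway list and contrast. The members and lists were chosen with earlier results of these data known. Annotation was taken from GENCODE vM21 (GRCm38), where 16651 genes matched by symbol and 687 by an older symbol, 34 were ambiguous and 222 unmatched, and promoter sequences from RefSeq. Alternatives were edgeR 4.0.16 and DESeq2 1.42.0 on the whole reads, 9 other settings and leaving out each library. The fit was tested on simulated data. Reads carry no molecular identifiers. Values of some genes of the lists are not reported here.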

Additional observations from a re-analysis of the deposited data

Results flagged for a closer look

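Of 156 sets of 4 libraries of 1 group (144 of the values of 1 member, 9 of the ratio of 1 catalytic pair and 3 of the Psme2 share), 5 held a library far from the others, where chance flags about 1 in 20. In Treg KO 3 Psma3 stood at 142, with the other Treg KO libraries at 167 to 167, and Psmb5 at 112, with the others at 187 to 197. Both genes were lower in Treg KO than in Treg WT with and without that library. In Treg KO 4 Psmd14 stood at 393, with the others at 447 to 452, and Psme2b at 1383, with the others at 1622 to 1653. In Treg WT 1 Psme1 stood at 1891, with the others at 1741 to 1765, and without it the fall of Psme1 in Treg KO did not pass (adjusted p = 0.067).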

How the results depend on the processing

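Of the 18 members called between Treg KO and Treg WT, Psma3, Psmb2, Psmb3, Psmb4, Psmb5, Psmc2, Psmd1, Psme2 and Psme4 passed in the same direction under each of the 11 other settings and without each library in turn, as did Psma2, Psmb2, Psmb3, Psmb4, Psmc2, Psmc4 and Psmd1 of the 13 called between Treg KO and Tconv KO. The call of Psme2 in Treg ended when its reads were summed with those of Psme2b (-0.09, adjusted p = 0.42), a setting not among the 11. Between Treg KO and Treg WT the 10 higher became 5 with the GC trend removed, where Psma2 reversed to -0.0078. In that fit 25.0% of members passed in either direction, against 13.5% of all genes. Without 1 library 6 to 10 were higher. The 8 lower became 5 in a fit of only the groups compared (25.0% of members in either direction, against 14.4% of all genes). With the length trend removed they became 4 (31.2%, against 19.4%). Without 1 library they were 4 to 10, where 12.3 to 24.2% of all genes passed. Counted over members that share under 20 percent of their sequence they were 5, because Psma3, Psmb3 and Psmb5 are left out of the same fit. In Tconv KO against Tconv WT the 1 higher became 0 in the fit of only the groups compared, where 0.283% of all genes passed. It became 0 with Psme2 and Psme2b summed as well. The members sharing little sequence do not include Psme2, so its call could not be counted among them. Without 1 library 0 to 1 were higher and 0 to 1 lower (Psmb5, without Treg KO 3), where 0.194 to 2.20% of all genes passed. In Treg WT against Tconv WT the fit of only the groups compared called 2 higher and 1 lower (6.25% of members, against 35.3% of all genes). In Treg KO against Tconv KO the 7 lower became 3 in the fit of only the groups compared (14.6% of members in either direction, against 18.0% of all genes). With the length trend removed they were 3 (22.9%, against 31.5%). Without 1 library they were 4 to 6, where 25.7 to 34.4% of all genes passed. For the interaction DESeq2 called 1 member lower and 0.778% of all genes, where limma called 0 members and 0.150% of all genes. The cause of the changes between fits was not tested. The setting with Psme2 and Psme2b summed and the count over members sharing little sequence were chosen after seeing the data. No paired analysis was possible because no 2 groups share a sample number in the labels and no label ties samples to an animal; consecutive sample numbers were not taken as pairs.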
